A study of Mus musculus with 4 samples.

Results

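A set of 10 transcription regulators known from thymocyte maturation were followed through 4 populations of CD4+ CD8- mouse thymocytes. The genes were Satb1, Lef1, Sox4, Tox, Id2, Id3, Tcf12, Tcf3, Bach2 and Bcl6, out of 18194 genes named on the Affymetrix mouse 430 2.0 array. All probe sets carrying 1 of these gene symbols in the platform annotation were taken, 35 of 45101, and the main probe set of a gene was the brightest by its mean over the 4 deposited columns. The rule uses names and no measured values beyond the choice of the main probe set. The members themselves were chosen with earlier results of these data known, so the counts below are not on a list blind to them.

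Each population was measured on 1 array, from cells sorted with magnetic beads and then by flow cytometry from female mice of 6 to 8 weeks. Foxp3(gfp/gfp) mice, whose Foxp3 alleles both encode a fusion of GFP to the Foxp3 protein, gave 3 of them. Cells without GFP were split by CD25 into a GFP- CD25- and a GFP- CD25+ population, and the GFP+ population is named Foxp3-fusion. GFP+ cells of Foxp3(gfpko/wt) mice, heterozygous for a GFP-tagged knockout allele, are named Foxp3-null. The Foxp3-null sample carries the same description as the homozygous mice, and was assigned by its title, which its strain entry sets apart too. Its mice were at backcross generation 2 from 129/Sv to C57BL/6, and the mice of the other 3 arrays at generation 4 to 6, so genotype, backcross and array cannot be told apart in any comparison with Foxp3-null cells. The number of animals behind each array is not given. With 1 array per population there is no replicate check: no value carries an error or a p-value, and a gene is counted as apart when 2 arrays differ by 2-fold or more.

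The 10 genes belong to a few connected families. Tcf3 and Tcf12 encode the E proteins E2A and HEB, which bind E-box DNA and hold thymocytes at developmental checkpoints. Id2 and Id3 encode partners without a DNA-binding region that pair with E proteins and block them. Lef1, Sox4 and Tox encode HMG-box proteins, and Satb1 encodes an organiser of chromatin loops in thymocytes. Bach2 and Bcl6 encode repressors with a BTB domain, both of which can repress Prdm1, the gene for Blimp-1.

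Upstream sequence is shown for Id2, whose signal spanned the widest range of the 10, and for its relative Id3, whose signal spanned the narrowest. Bcl6 is shown as the only member whose main probe set was highest in GFP- CD25+ cells. The sequences are the 250 bases before the annotated start, from RefSeq, build GRCm38.p6, 5′ to 3′ on the strand of the gene. Capitals mark E-boxes (CANNTG) for Id2 and Id3, and matches to the STAT half-site pair TTCNNNGAA for Bcl6. Each motif reads the same on either strand, and no 2 capital matches overlap.
Id2, chr12:25096093-25096342, minus strand: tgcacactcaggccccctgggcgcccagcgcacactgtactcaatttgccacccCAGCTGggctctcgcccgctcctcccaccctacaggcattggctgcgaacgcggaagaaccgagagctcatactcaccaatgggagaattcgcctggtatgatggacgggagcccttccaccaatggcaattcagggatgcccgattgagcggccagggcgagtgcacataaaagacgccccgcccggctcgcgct
Id3, chr4:136143572-136143821, plus strand: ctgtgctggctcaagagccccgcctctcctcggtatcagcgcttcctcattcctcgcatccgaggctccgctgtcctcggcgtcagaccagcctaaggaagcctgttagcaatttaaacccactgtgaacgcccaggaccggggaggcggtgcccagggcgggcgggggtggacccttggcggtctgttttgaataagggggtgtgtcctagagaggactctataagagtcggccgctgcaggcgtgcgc
Bcl6, chr16:23981284-23981533, minus strand: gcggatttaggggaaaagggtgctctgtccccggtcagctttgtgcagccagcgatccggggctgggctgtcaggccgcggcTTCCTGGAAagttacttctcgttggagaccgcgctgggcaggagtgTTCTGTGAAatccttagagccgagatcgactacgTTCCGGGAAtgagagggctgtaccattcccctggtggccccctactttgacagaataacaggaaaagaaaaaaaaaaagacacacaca

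The Id2 window held 1 E-box, beginning at position -196 from the start, and the Id3 window held 0. An E-box of this kind was present in 66.2% of all 32851 upstream windows in the table, and in 12 of the 19 windows of the members. The Bcl6 window shown held 3 STAT-type matches, at -168, -122 and -88, and the window of the other of the 2 Bcl6 starts held 1. The Bach2 window, not shown, also held 1, at -140. Of all windows, 7.02% held at least 1 STAT-type match. An entry was found for 9 of the 10 members, with 19 windows in all, and Tox was not among them. A match is a run of letters and not a measured site.

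The arrays were on unequal scales as deposited, with 90th percentiles of log2 signal from 7.54 to 8.17, and were quantile normalized. Values below are log2 of the normalized signal unless said otherwise. A floor of 5.01 log2 was set from probe sets of genes known from other tissues, and a lower signal counts as the floor. The gap between the 3' and 5' control probe sets of actin, a sign of how far the amplified RNA was shortened, was 8.39 log2 for GFP- CD25-, 9.27 for GFP- CD25+, 6.99 for Foxp3-null and 5.22 for Foxp3-fusion cells. For the control gene Gapdh the gap was 6.45, 6.66, 4.92 and 4.62 in the same order. Foxp3 itself, through GFP a gene of the sort, read 2.76 in GFP- CD25-, 2.88 in GFP- CD25+, 7.27 in Foxp3-null and 8.83 in Foxp3-fusion cells, and whether its probe set lies in the part removed by the knockout is not known, so it does not check that label. All 7 T cell markers on the array, such as Cd3e and Cd5, were above the floor in every population, and Cd8a and Cd8b1 were under it in every population. The order of the 4 arrays for each of the 10 genes was the same on the normalized, deposited and centred scales.

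**Figure D1:**
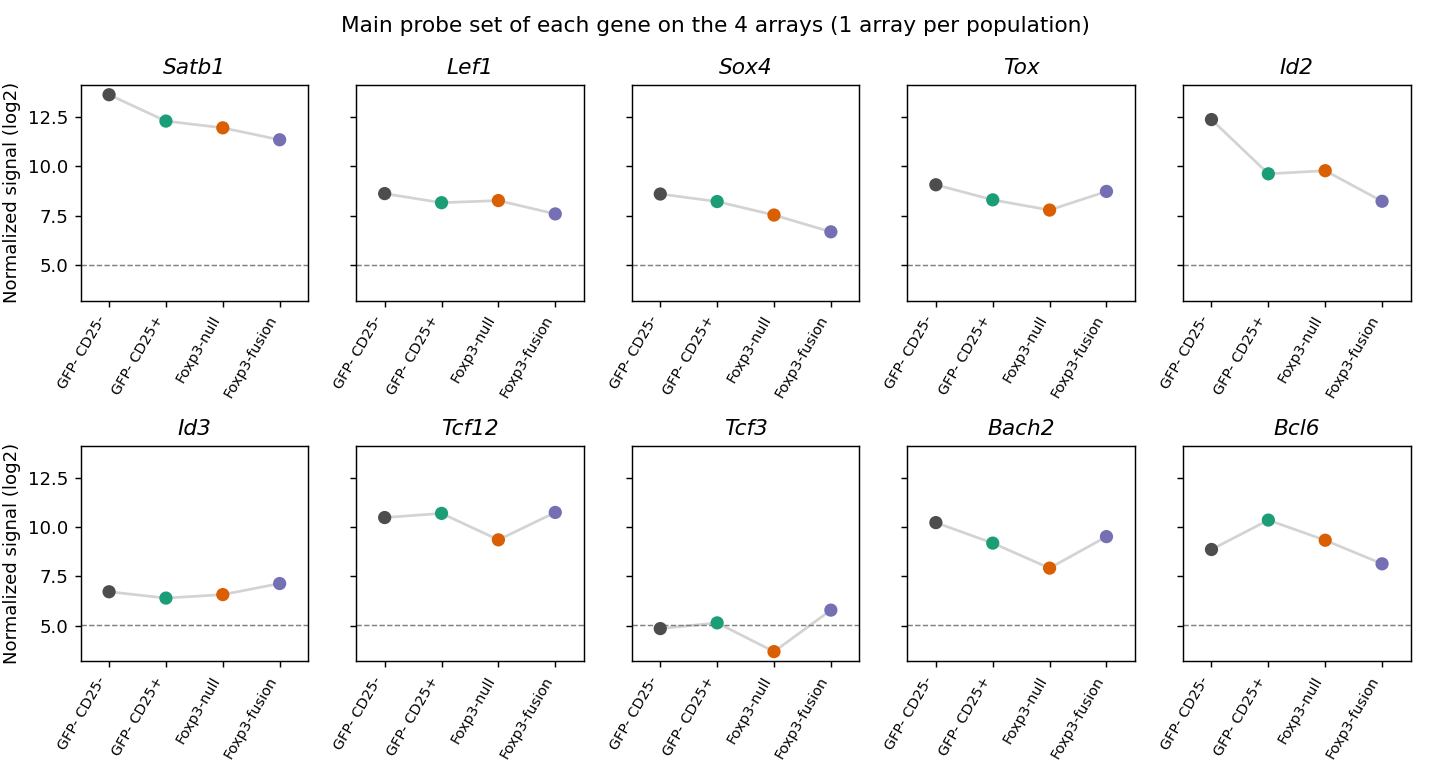
Log2 normalized signal (y axis) of the main probe set of each of the 10 genes on the 4 arrays (x axis), 1 point per array, with the floor of 5.01 as a dashed line and grey lines joining points only to guide the eye. Id2 has the widest span, from 12.37 in GFP- CD25- cells to 8.22 in Foxp3-fusion cells, and Tcf3 is the only gene with arrays under the floor.

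Id2 was high in GFP- CD25- cells and much lower in every other population. Its main probe set, 1435176_a_at, read 12.37 in GFP- CD25-, 9.62 in GFP- CD25+, 9.77 in Foxp3-null and 8.22 in Foxp3-fusion cells. Relative to GFP- CD25- cells it was 17.7-fold lower in Foxp3-fusion cells, 6.03-fold lower in Foxp3-null cells and 6.73-fold lower in GFP- CD25+ cells. The first of these ranked 5 from the bottom among 6744 measured genes. Foxp3-null and GFP- CD25+ cells were close to each other, 0.16 log2 apart, and Foxp3-fusion cells lay a further 2.93-fold below Foxp3-null cells. That last difference was 1.94-fold with deposited values. The other 2 Id2 probe sets were under the floor on all arrays, between 2.55 and 2.72, so the pattern rests on 1 probe set, whose type can match several transcripts of a gene.

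Id3, the other E-protein inhibitor, did not share that pattern. Its single probe set, 1416630_at, read 6.72 in GFP- CD25-, 6.40 in GFP- CD25+, 6.57 in Foxp3-null and 7.13 in Foxp3-fusion cells. The whole span was 1.67-fold, and the highest array was that with the lowest Id2. The Foxp3-fusion signal was above that of Foxp3-null cells by 1.47-fold, or by 2.27-fold on the deposited scale. The actin gap was also smallest on the Foxp3-fusion array, whereas the Gapdh gap was close on these 2 arrays, at 4.62 against 4.92. The part of RNA shortening in this difference was not tested.

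Tcf12, which encodes HEB, was lowest in Foxp3-null cells on all 3 of its bright probe sets. The main one, 1427670_a_at, read 10.48 in GFP- CD25-, 10.69 in GFP- CD25+, 9.35 in Foxp3-null and 10.74 in Foxp3-fusion cells. Foxp3-null cells were 2.19-fold below GFP- CD25- cells, and Foxp3-fusion cells were 2.62-fold above Foxp3-null cells. The other probe sets placed Foxp3-fusion cells differently. They read 10.65, 10.27, 8.50 and 9.28 for 1439209_at, and 7.37, 7.50, 5.19 and 5.97 for 1439619_at, in the order GFP- CD25-, GFP- CD25+, Foxp3-null and Foxp3-fusion. On these the difference of Foxp3-fusion from GFP- CD25- cells was -1.37 and -1.41 log2, whereas it was 0.26 on the main probe set.

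Tcf3, which encodes E2A, was near the floor throughout. Its main probe set, 1426297_at, read 4.85 in GFP- CD25-, 5.14 in GFP- CD25+, 3.68 in Foxp3-null and 5.79 in Foxp3-fusion cells. Only GFP- CD25+ and Foxp3-fusion cells were above the floor, and Foxp3-fusion cells exceeded the 2 populations under it by at least 1.71-fold. The remaining 2 probe sets were under the floor on all arrays. The relative Tcf4, the third E protein gene, was above the floor in every population and spanned 5.96 to 6.47.

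Satb1 had more bright probe sets than any other member, 5 of them above the floor on all arrays, and on each its signal was highest in GFP- CD25- cells. Its main probe set, 1416008_at, read 13.63 in GFP- CD25-, 12.29 in GFP- CD25+, 11.95 in Foxp3-null and 11.34 in Foxp3-fusion cells. It was thus 4.87-fold lower in Foxp3-fusion cells than in GFP- CD25- cells, 3.20-fold lower in Foxp3-null cells and 2.52-fold lower in GFP- CD25+ cells. All 5 probe sets were lower than in GFP- CD25- cells in each of the other populations, with log2 differences of -4.04 to -2.00 for Foxp3-fusion, -3.99 to -1.36 for Foxp3-null and -2.31 to -1.34 for GFP- CD25+ cells.

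Between the populations other than GFP- CD25- cells, Satb1 differed less. After normalization Foxp3-fusion cells were below Foxp3-null cells on every probe set, with log2 differences of -0.67 to -0.06, none of them 2-fold. With deposited values the differences ran from -0.11, on the main probe set, to 0.45, and the direction turned on 2 of the 5. These were 1416007_at, at 10.04 in Foxp3-fusion against 9.85 in Foxp3-null cells, and 1439315_at, at 6.32 against 5.87. The probe set 1439315_at stood apart, at 10.09 in GFP- CD25-, 8.20 in GFP- CD25+, 6.11 in Foxp3-null and 6.05 in Foxp3-fusion cells. On it both GFP+ populations differed from GFP- CD25+ cells by -2.10 and -2.15 log2, a gap that the other 4 probe sets did not show to that degree.

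Sox4, an HMG-box gene of immature lymphocytes, was lowest in Foxp3-fusion cells. Its main probe set, 1433575_at, read 8.59 in GFP- CD25-, 8.21 in GFP- CD25+, 7.53 in Foxp3-null and 6.68 in Foxp3-fusion cells. Foxp3-fusion cells were 3.78-fold and Foxp3-null cells 2.09-fold below GFP- CD25- cells. The 2 other probe sets with signal also had Foxp3-fusion cells lowest, under the floor, at 4.60 and 3.24. They differed on the highest population. GFP- CD25+ cells led on 1419156_at, at 8.11 against 6.83 in GFP- CD25- cells, and Foxp3-null cells led on 1419155_a_at, at 5.96. The 5 further Sox4 probe sets were under the floor on all arrays.

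Lef1, a DNA-binding partner of beta-catenin, was lowest in Foxp3-fusion cells. Its main probe set, 1454734_at, read 8.61 in GFP- CD25-, 8.15 in GFP- CD25+, 8.26 in Foxp3-null and 7.58 in Foxp3-fusion cells. Foxp3-fusion cells were 2.04-fold below GFP- CD25- cells, just past the 2-fold mark, and 1.68-fold below with deposited values. The other probe set, 1421299_a_at, had the same order of arrays, at 6.23, 5.28, 5.70 and 3.86, with Foxp3-fusion cells under the floor.

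Tox, an HMG-box gene needed for CD4 lineage development, was lowest in Foxp3-null cells on its main probe set. That probe set, 1425484_at, read 9.06 in GFP- CD25-, 8.30 in GFP- CD25+, 7.78 in Foxp3-null and 8.72 in Foxp3-fusion cells. Foxp3-null cells were 2.43-fold below GFP- CD25- cells and 1.93-fold below Foxp3-fusion cells, the latter gap being 1.58 log2 on the deposited scale. The dimmer probe set 1442039_at did not have that dip, at 6.74, 6.54, 6.68 and 5.99 in the same order of populations. On it Foxp3-fusion cells were lowest.

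Bach2, a repressor that restrains effector differentiation, was lowest in Foxp3-null cells on both bright probe sets. The main one, 1437667_a_at, read 10.22 in GFP- CD25-, 9.18 in GFP- CD25+, 7.92 in Foxp3-null and 9.51 in Foxp3-fusion cells. Foxp3-null cells were 4.95-fold below GFP- CD25- cells, and Foxp3-fusion cells were 3.03-fold above Foxp3-null cells. The second, 1436515_at, read 9.44, 9.67, 7.90 and 9.39 in the same order. On it the difference of Foxp3-null from GFP- CD25- cells was -1.54 log2, and that of Foxp3-fusion from Foxp3-null cells was 1.49. The probe sets disagreed on GFP- CD25+ cells, which were 2.06-fold below GFP- CD25- cells on the main one but 0.22 log2 above on the second, where the deposited values of the 2 arrays were identical.

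Bcl6, a repressor best known from germinal centre B cells and follicular helper T cells, had its peak in GFP- CD25+ cells. Its main probe set, 1421818_at, read 8.86 in GFP- CD25-, 10.35 in GFP- CD25+, 9.33 in Foxp3-null and 8.13 in Foxp3-fusion cells. GFP- CD25+ cells exceeded GFP- CD25- cells by 2.81-fold, Foxp3-null cells by 2.03-fold and Foxp3-fusion cells by 4.65-fold. Foxp3-fusion cells were also 2.29-fold below Foxp3-null cells, or 1.49-fold with deposited values. The other probe set was under the floor on all arrays, so the pattern rests on 1 probe set.

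**Figure D2:**
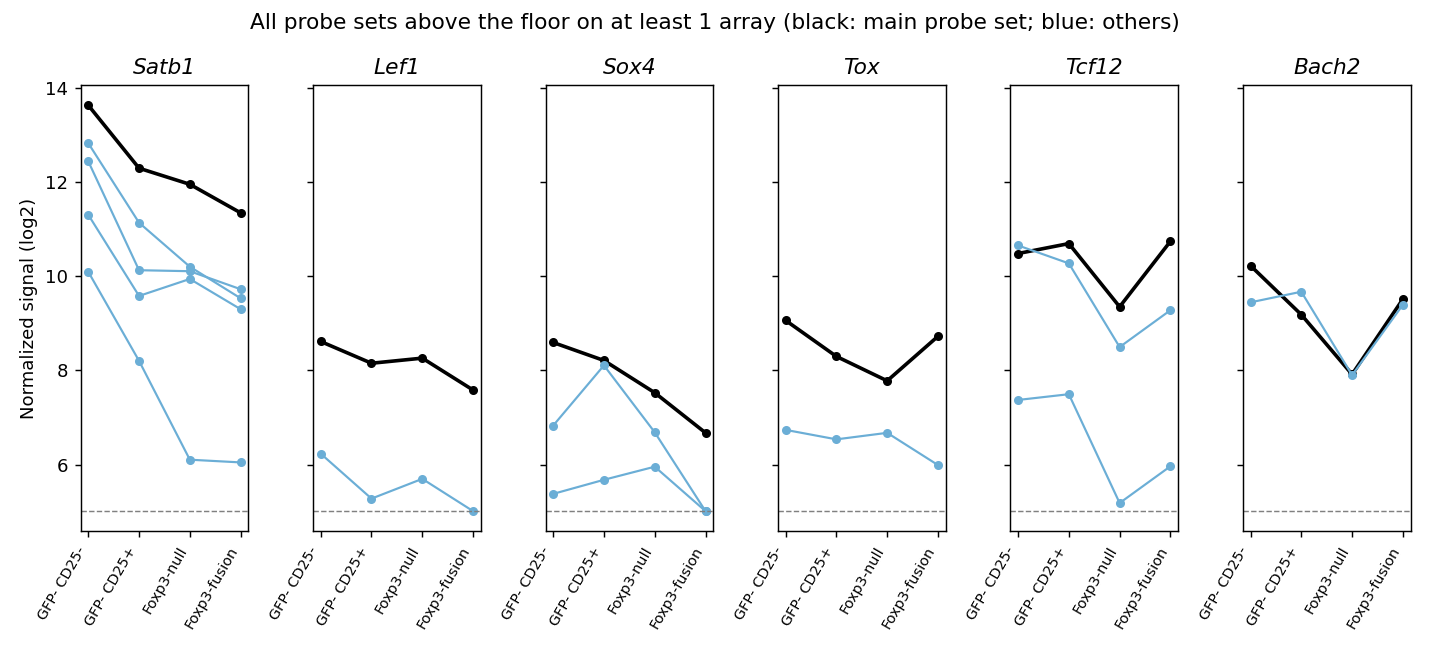
Log2 normalized signal (y axis) on the 4 arrays (x axis) of every probe set above the floor on at least 1 array, for the 6 genes with more than 1 such probe set; black lines are main probe sets, blue lines the others, the dashed line is the floor, and lower signals are drawn at the floor. The 5 Satb1 probe sets all have their highest point in GFP- CD25- cells, whereas those of Sox4 and Tox differ in shape.

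Of the 35 probe sets, 21 were above the floor on at least 1 array and 17 on all 4, and 14 were under it throughout. Of the 10 main probe sets 9 were above the floor on all arrays, Tcf3 being the exception. Over the 10 main probe sets, GFP- CD25- cells were the highest population for 6 genes (Satb1, Lef1, Sox4, Tox, Id2 and Bach2) and the lowest for 0. Foxp3-fusion cells were the lowest for 5 (Satb1, Lef1, Sox4, Id2 and Bcl6) and the highest for 3 (Id3, Tcf12 and Tcf3). Foxp3-null cells were the lowest for Tox, Tcf12, Tcf3 and Bach2, and the highest for 0. GFP- CD25+ cells were the highest for Bcl6 and the lowest for Id3. The share of all genes with each population highest or lowest was not computed, so these counts have no background beside them. Other probe sets of Sox4, Tox, Tcf12 and Bach2 placed a different population highest or lowest, as given above. In bulk RNA, fewer cells that express a gene and less of its RNA per cell cannot be told apart.

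The comparison of Foxp3-fusion with GFP- CD25- cells asks how these regulators stand in Foxp3-expressing thymocytes. Of the 10 members, 4 were 2-fold or more lower (Satb1, Lef1, Sox4 and Id2) and 0 were 2-fold or more higher. Among all 6744 genes measured in it, 5.83% were 2-fold or more lower and 10.5% 2-fold or more higher. The members had a median difference of -0.72 log2, against -0.03 over all genes. Deposited values gave 3 lower (without Lef1) and 1 higher (Tcf3), where 3.80% and 15.7% of all genes were so, and medians of -0.45 and 0.18. Among all genes 2-fold apart, 64.3% were higher on the normalized and 80.5% on the deposited scale. The counts of members in this and the following comparisons use main probe sets only. Tcf12, at 0.26 log2 on its main probe set and so not counted here, was at -1.37 on 1439209_at and -1.41 on 1439619_at.

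In Foxp3-null against GFP- CD25- cells, 6 of 9 measured members were 2-fold or more lower, namely Satb1, Sox4, Tox, Id2, Tcf12 and Bach2, and 0 were 2-fold or more higher. Of 6934 genes, 7.67% were lower by that much and 10.5% higher. Tcf3 was under the floor on both arrays and gave no difference. Sox4 and Tox passed 2-fold on their main probe sets only. Sox4 gave -0.14 log2 on 1419156_at and 0.58 on 1419155_a_at, and Tox gave -0.06 on 1442039_at. With the median over probe sets, 3 members were 2-fold or more lower. The median of the members was -1.13 log2, against 0.22 over all genes. On the deposited scale the same 6 members were lower, with medians of -1.45 and -0.02, and 12.6% of all genes were lower and 5.08% higher. The share of higher genes among those apart moved from 57.8% to 28.7% with that change of scale.

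In GFP- CD25+ against GFP- CD25- cells, which the labels tell apart by CD25, 3 members were 2-fold or more lower (Satb1, Id2 and Bach2) and 1, Bcl6, was 2-fold or more higher. Of 6717 genes, 4.62% were lower and 4.29% higher by that much. Bach2 was lower on its main probe set only, since 1436515_at gave 0.22 log2. The median was -0.42 log2 for the members and 0.11 for all genes. Deposited values added Tox to the lower members, at 2.05-fold, where 7.70% of all genes were lower and 2.74% higher. The share of higher genes among those apart was 48.2%, or 26.2% as deposited. These 3 comparisons share the GFP- CD25- array, so a gene with a high value on it appears lower in each of them.

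The GFP+ populations of the 2 genotypes were set against each other, a comparison in which genotype, backcross and array cannot be told apart. Tcf12 and Bach2 were 2-fold or more higher in Foxp3-fusion cells, and Id2 and Bcl6 2-fold or more lower. For Tcf12 this held on the main probe set only, since 1439209_at and 1439619_at each gave 0.78 log2. Of 7042 genes, 9.19% were higher and 8.39% lower by that much, and the medians were -0.02 log2 for the members and -0.15 for all genes. This comparison depended most on the scale. With deposited values 5 members were 2-fold or more higher, Tox, Id3 and Tcf3 being added, and 0 were lower. On that scale 21.2% of all genes were higher and 2.60% lower, and the median over all genes was 0.34. The share of higher genes among those apart went from 52.3% to 89.1%.

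A further comparison set Foxp3-fusion cells against GFP- CD25+ cells, which carry CD25 but no GFP. Sox4, Id2 and Bcl6 were 2-fold or more lower in Foxp3-fusion cells, and 0 members were 2-fold or more higher, where 8.40% of 6895 genes were lower and 11.8% higher. The Bcl6 difference was the largest of these, and 2.90-fold was found for Sox4 and 2.63-fold for Id2. Deposited values gave Sox4 and Bcl6 as lower and Id3 as higher, at 2.34-fold, with 3.02% of all genes lower and 22.7% higher. The median over all genes was -0.09 log2 on the first scale and 0.29 on the second, and the share of higher genes among those apart was 58.3% and 88.3%.

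Between Foxp3-null and GFP- CD25+ cells, Tcf12, Bach2 and Bcl6 were 2-fold or more lower in Foxp3-null cells on both scales, by 2.53-fold, 2.41-fold and 2.03-fold on the normalized one. No member was 2-fold or more higher. Of 6928 genes, 7.59% were lower and 8.63% higher by that much, and 8.78% and 6.43% as deposited. The share of higher genes among those apart was 53.2%, or 42.3% as deposited. Id2, Id3 and Lef1 differed by less than 0.2 log2 between these arrays.

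**Figure D3:**
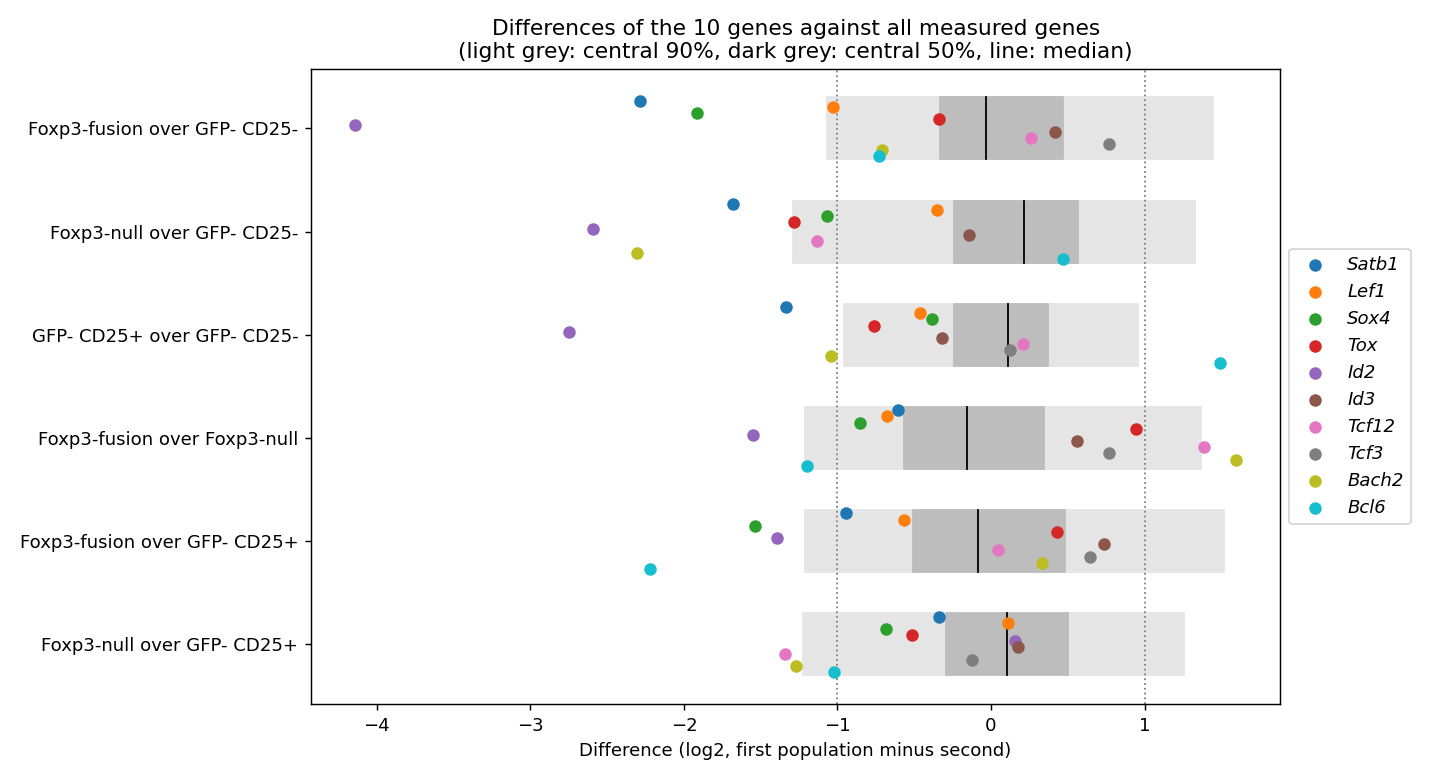
Log2 difference (x axis, first population minus second) of the 10 genes in the 6 comparisons (y axis), 1 coloured point per gene, over the central 90% (light grey) and central 50% (dark grey) of all measured genes and their median (line); dotted lines mark 2-fold. Id2 lies at -4.14 in Foxp3-fusion over GFP- CD25- cells, and Bcl6 lies at 1.49 in GFP- CD25+ over GFP- CD25- cells.

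**Figure D4:**
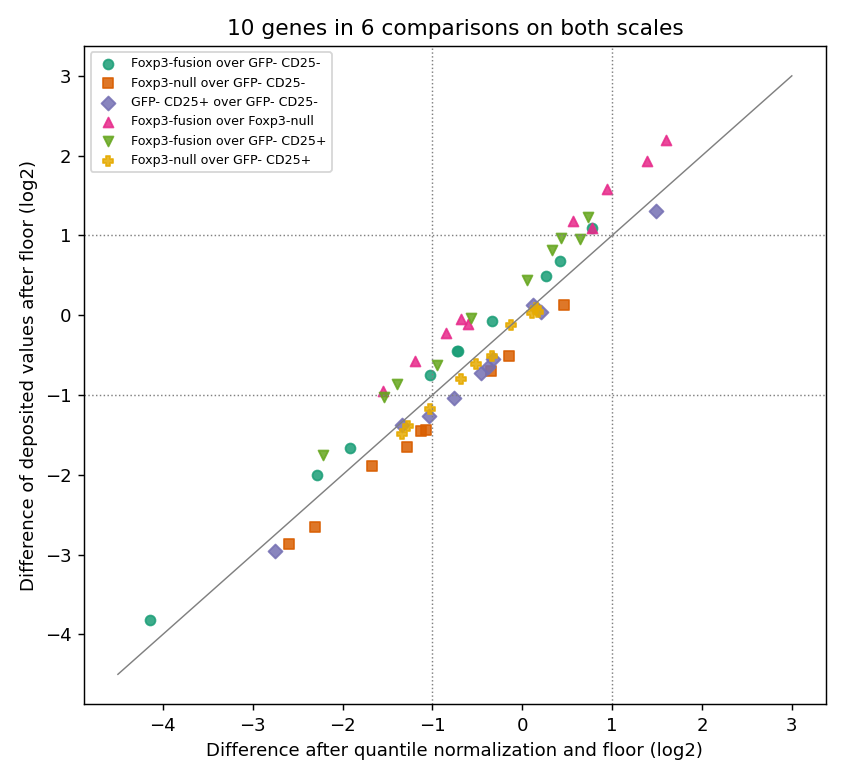
Log2 difference of the 10 genes in the 6 comparisons after quantile normalization (x axis) and with deposited values (y axis), both after the floor, 1 symbol per comparison; the grey line marks equality and dotted lines 2-fold. Points of Foxp3-fusion over Foxp3-null cells lie above the line, and no difference measured on both scales changes sign.

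Relatives and partners of the members were looked at through named lists, with the members left out. These lists too were chosen with earlier results of these data known. Of 8 measured HMG-box relatives and Tcf/Lef cofactors, 0 were 2-fold apart between Foxp3-fusion and GFP- CD25- cells. Among all genes 5.83% were lower and 10.5% higher by that much. Of 9 measured in Foxp3-null cells only Tle3, a corepressor of Tcf/Lef proteins, was 2-fold apart, at 2.22-fold lower. There 7.67% of all genes were lower and 10.5% higher. Deposited values gave 0 for Foxp3-fusion and 2 for Foxp3-null cells, both lower, where 12.6% of all genes were so. Ctnnb1, the beta-catenin gene, read 11.06 in GFP- CD25-, 10.89 in GFP- CD25+, 11.11 in Foxp3-null and 11.78 in Foxp3-fusion cells. 

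Among relatives and partners of Bach2 and Bcl6, 3 of 9 measured genes were 2-fold or more lower in Foxp3-fusion than in GFP- CD25- cells and 1 was higher, on both scales. Of all genes, 5.83% were lower and 10.5% higher after normalization, and 3.80% and 15.7% as deposited. The lower ones were Bcorl1, a relative of the Bcl6 corepressor Bcor, at no less than 2.52-fold, Zbtb16 at no less than 2.59-fold and Patz1 at 2.62-fold. The same 3 genes were lower in both other populations. Zbtb1 was 3.41-fold higher in Foxp3-fusion cells. Prdm1, a gene that Bach2 and Bcl6 can repress, was above the floor in Foxp3-fusion cells only, at 5.51, and between 2.71 and 2.82 in the other populations.

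Of 24 measured other regulators of T cell development, 4 were 2-fold or more higher in Foxp3-fusion than in GFP- CD25- cells and 4 lower, with a median of -0.29 log2, where 10.5% of all genes were higher and 5.83% lower. Deposited values gave 4 higher and 2 lower, where 15.7% of all genes were higher and 3.80% lower. Myb was 3.71-fold and Gfi1 2.23-fold higher, and Cux1 was 2.73-fold and Runx1 2.48-fold lower. In Foxp3-null cells, 4 of 25 were higher and 3 lower, beside 10.5% and 7.67% of all genes, with Lmo4 at no less than 4.42-fold higher and Cux1 at 7.28-fold lower. In GFP- CD25+ cells, Myb was 5.53-fold and Gfi1 3.88-fold higher than in GFP- CD25- cells, 2 of 24 in all, and 3 were lower, beside 4.29% and 4.62% of all genes. The balance turned with the scale, as it did over all genes. Deposited values gave 2 higher and 7 lower in Foxp3-null cells, where 5.08% of all genes were higher and 12.6% lower. They gave 2 higher and 7 lower in GFP- CD25+ cells, where 2.74% of all genes were higher and 7.70% lower.

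Genes listed as E protein targets in thymocytes, whichever the direction, were counted in the same way, beside the shares of all genes given above. Il7r is also on the list of mature single-positive genes below, and Dntt on that of immature genes. In Foxp3-fusion against GFP- CD25- cells 1 of 6 measured was 2-fold or more higher, Socs3 at 2.11-fold, and 1 was lower, Il7r at 2.47-fold. In Foxp3-null cells 0 of 5 were higher and 1, Il7r, was lower. In GFP- CD25+ cells Dntt, the terminal transferase of immature thymocytes, was 8.27-fold higher and Il7r 8.12-fold lower, 1 of 6 in each direction. Deposited values gave 1 higher and 2 lower there, where 2.74% of all genes were higher and 7.70% lower. Against GFP- CD25+ cells, Foxp3-null cells had 3 of 6 higher, where 8.63% of all genes were so, and 1 lower, where 7.59% were. The higher ones were Cd6 at 2.44-fold, Il7r at 2.28-fold and Cd4, a gene of the sort, at 2.00-fold, and the lower one was Dntt at no less than 10.2-fold. Deposited values gave 2 higher and 1 lower, where 6.43% of all genes were higher and 8.78% lower. In Foxp3-fusion cells 1 of 7 was higher than in GFP- CD25+ cells, Il7r at 3.29-fold, and 1 lower, Dntt at no less than 10.2-fold, beside 11.8% and 8.40% of all genes. Deposited values gave 3 higher and 1 lower, where 22.7% of all genes were higher and 3.02% lower.

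Stage markers were read beside these regulators. Their lists were chosen with earlier results of these data known, so the counts are no independent test of the stage of a population. Of 6 measured immature thymocyte genes, 3 were 2-fold or more higher in GFP- CD25+ than in GFP- CD25- cells, namely Dntt, Cd24a and Arpp21. The list had 1 lower, Ccr9, and 4.29% of all genes were higher and 4.62% lower. Cd1d1 read 10.79 against 10.76, and Rag2, Ptcra, Cd8a, Cd8b1 and Aqp11 were under the floor on every array. Cd24a read 9.00 in GFP- CD25-, 10.49 in GFP- CD25+, 8.02 in Foxp3-null and 6.45 in Foxp3-fusion cells. Rag1 and Arpp21 were above the floor in GFP- CD25+ cells only, Rag1 narrowly at 5.22 against the floor of 5.01. Both thus count as measured only through the array where they are high. The chemokine receptor gene Ccr9 instead had its highest signal in GFP- CD25- cells and its lowest in Foxp3-fusion cells, 17.5-fold apart. Of 15 mature single-positive thymocyte genes, 8 were 2-fold or more higher in Foxp3-fusion than in GFP- CD25+ cells and 0 lower, where 11.8% and 8.40% of all genes were so. The largest difference was that of H2-D1, at 8.70-fold. Klf2 and S1pr1 of that list were at 0.55 and -0.38 log2, or 1.07 and 0.09 as deposited. Foxp3-null cells shared this, with 6 of the 15 higher than in GFP- CD25+ cells and 0 lower, or 6 and 1 as deposited. Of all genes 8.63% were higher and 7.59% lower there, or 6.43% and 8.78% as deposited. GFP- CD25+ cells themselves had 5 of the 15 lower than GFP- CD25- cells and 0 higher, beside 4.62% and 4.29% of all genes. Foxp3-fusion cells against GFP- CD25- cells had 4 of the 15 higher and 2 lower, beside 10.5% and 5.83% of all genes.

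Markers of other cells were mostly under the floor, as were most genes. Of all 18194 genes, 7233 were above it on at least 1 array. Of 7 B cell markers on the array 6 were under it on every array, Cd79a, Cd79b and Pax5 among them, and the exception, Ms4a1, passed it in Foxp3-null cells only, at 5.63. Of 8 dendritic cell and macrophage markers 7 were under it throughout, and Csf1r reached 5.50 in Foxp3-null cells. Of 6 thymic epithelium markers only Epcam passed it, on every array, at 6.49 to 7.28. Of 9 markers of NK, NKT and innate lymphoid cells, cells known for high Id2, 5 were under the floor on every array, including Ncr1 and Tbx21. Zbtb16, which encodes PLZF, was above the floor in GFP- CD25- cells only, at 6.39, against 2.66 to 2.83 elsewhere. Klrd1 was likewise at 6.32 there and between 3.38 and 3.55 elsewhere, whereas Nkg7 was at 4.95 there and highest in Foxp3-null cells, at 6.25. Eomes was under the floor in GFP- CD25- cells, at 4.74, and above it in the others, at 6.19 in GFP- CD25+, 6.06 in Foxp3-null and 5.40 in Foxp3-fusion cells. The log2 of the summed signal of these 9 genes was 8.03 in GFP- CD25-, 7.13 in GFP- CD25+, 7.60 in Foxp3-null and 7.25 in Foxp3-fusion cells. All 4 populations were sorted as CD4+ CD8- cells, a gate that would remove most NK cells and CD4- innate lymphoid cells but not CD4+ NKT cells. Id2 was highest on the same array as Zbtb16 and Klrd1, and the part of such cells in the Id2 difference was not tested.

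The genes with the most similar patterns were found for the 9 members that spanned at least 1 log2, by the root mean square difference of centred log2 profiles over the 4 arrays. With 4 arrays this is a description of shape and amplitude alone. Signals entered without the floor, so a distance can rest on values under it. H2-Q2, 6430590A07Rik and Pxylp1 were under the floor on 3 of the 4 arrays, and Ercc6 and Ap4e1 on 1, that of Foxp3-null cells. The nearest to Id2 was Ccr9, at 0.28 log2, with signals of 12.94, 10.85, 10.38 and 8.81 from GFP- CD25- to GFP- CD25+, Foxp3-null and Foxp3-fusion cells, and next came Pxylp1 at 0.34. The nearest to Satb1 was H2-Q2 at 0.07 and then Als2cl at 0.09. Sox4 was nearest to Rbmx at 0.11 and Dzip1 at 0.13, Lef1 to Mllt11 at 0.01 and Gna11 at 0.03, and Tox to 6430590A07Rik at 0.04 and Dbt at 0.09. Bach2 was nearest to Ercc6 at 0.07 and Ap4e1 at 0.08. Bcl6 was nearest to Selenow at 0.10 and Pa2g4 at 0.11. Tcf12 was nearest to Ints6 at 0.005 and Pan2 at 0.03, and Tcf3, mostly near or under the floor, to Gabpa at 0.02 and Scaf8 at 0.03. The distance to Id2 was the largest of these first distances.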

How the data were processed

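RNA of 4 sorted populations of CD4+ CD8- thymocytes was amplified in 2 rounds and hybridised to Affymetrix mouse 430 2.0 arrays, per the labels' protocols. The authors deposited 1 log2 signal per probe set and array. Base 2 was taken from how far the values reach, and background correction, summarisation and normalization are not given in the sources used here. Amplification shortens products at their 5' ends, so probe sets of a gene can lose signal unequally.

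All 45101 probe sets were quantile normalized with Python 3.11.15, numpy 2.4.6 and pandas 2.3.3. The platform annotation named 1 gene for 34958 of them; 932 with several genes and 9211 with none listed stayed unnamed. Of these identifiers 34754 were found in the RefSeq table of GRCm38.p6. For the floor, the 90th percentile of 65 probe sets of genes silent in T cells was taken on each array, and the highest used, 5.01 log2, or 4.95 as deposited. The main probe sets of 4 of these genes exceeded it, Afp among them. Where 1 of 2 arrays is under the floor the fold is a lower bound ("at least", "no less than"), and where both are, none is given.

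All 10 members are named; list genes are named where 2-fold apart, largest first, and some are named for their known role, a choice made after the values were seen. The members and lists were chosen with earlier results of these data known. The steps were tested on simulated data. The alternatives were the deposited scale, centred arrays, no floor, a floor 1 log2 higher, the median over probe sets, dropping probe sets of a type open to several transcripts (_a_at, _s_at, _x_at), and a 3-fold threshold.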

Additional observations from a re-analysis of the deposited data

How the results depend on the processing

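Centring, no floor and a higher floor left every count of members within 1.5 times of the value reported, and no difference of a member's main probe set changed sign between the normalized, deposited and centred scales. In Foxp3-fusion over Foxp3-null cells, members at least 2-fold higher numbered 5 as deposited, and 1 each with the median over probe sets, without probe sets of types open to several transcripts, and at 3-fold. Lower members there numbered 0, 1, 1 and 0. With deposited values 1 member was higher in Foxp3-fusion than in GFP- CD25- cells, and 1 against the GFP- CD25+ array. In Foxp3-null over GFP- CD25- cells lower members numbered 3 with the median and 3 at 3-fold. In GFP- CD25+ over GFP- CD25- cells higher members numbered 0 in both settings, and lower members 1 in both and 1 when those probe sets were dropped. At 3-fold, 1 member was lower in Foxp3-fusion than in GFP- CD25+ cells, and 0 in Foxp3-null than in GFP- CD25+ cells. Bach2 in GFP- CD25+ over GFP- CD25- cells turned from -1.04 to 0.22 log2 when 1436515_at stood for the gene. Tcf12 in Foxp3-fusion over GFP- CD25- cells turned from 0.26 to -1.37 log2 when 1439209_at stood for it. The count of lower members in that comparison stayed at 4 in this setting, with Tcf12 in place of Id2. The cause of these turns was not tested. Id2, Tcf12 and Bach2 were represented by probe sets of such a type; for Id2 the alternative gave no value, its other probe sets being under the floor. No paired analysis was possible because each population has 1 array. Precision is limited by the number of arrays, and signals of Tcf3 lay close to the floor.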
